A study of Mus musculus with 3 samples.

Results

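Thymic expression of 10 tissue-restricted antigens was followed across 3 spatially barcoded thymus sections: Gp2, Reg3g, Saa1, Saa3, Bpifa1, Scgb3a1, Cyp2f2, Calcb, Clca3a2 and Spink5, out of 54838 genes listed. The genes were chosen by name as products of mimetic epithelial cells, after their levels, positive bins and neighbours in these same sections had been read, so every level, ratio and neighbourhood value below is a description with no test. The sections came from 3 female C57BL/6 mice, namely a Trp53-/- mouse aged 17 weeks (section KO1134), a Trp53-/- mouse aged 21 weeks (section KO1308) and a Trp53+/+ mouse aged 17 weeks (section WT1101). The knockout is carried by every cell of the mouse, each section is 1 animal, age differs between the KO sections, and the methods give the KO sections a longer permeabilisation than WT, so genotype, animal and handling cannot be told apart. Section names and ages follow the labels, but the study's own sample table describes its KO1308 thymus with bin numbers and depth closer to those of the section labelled KO1134, so which KO animal is which is uncertain. Polyadenylated RNA was captured on an S1000 slide and counted as unique molecules (UMIs) per 4.8 µm spot, and spots were summed here into square bins 27 µm wide, each wide enough to hold several cells.

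Medullary epithelial cells of the thymus display proteins of distant organs to developing T cells, a task in which the nuclear regulator Aire has a central part. Mimetic cells are medullary epithelial cells that take on the expression programme of a peripheral cell type, such as the microfold cell of the gut lining, the secretory cell of the airway, the keratinocyte, the tuft cell or the endocrine cell. Thymocytes that bind such antigens strongly are removed or diverted into the regulatory lineage.

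Tissue bins, meaning bins with at least 300 genes and at most 30% mitochondrial UMIs lying in connected groups of at least 200 bins, numbered 12009 in KO1134, 16141 in KO1308 and 27106 in WT1101. They held 31120116, 17585801 and 40576115 UMIs, at a mean of 2591, 1090 and 1497 per bin. Trp53 itself was present at 17.0 CPM (counts per 1e6 tissue UMIs) in KO1134, 25.1 in KO1308 and 79.9 in WT1101, lower in both sections labelled Trp53-/-. Medullary bins, where 8 medullary epithelial genes took at least 1.5 times their share in the section within a window of 7 by 7 bins, made up 23.1%, 26.2% and 24.1% of tissue. The rest of the thymus comprised the other windows in which 6 thymocyte and cortical genes reached 50% of their mean share. Windows with more B cell than thymus UMIs were set apart as lymph-node-like, 1959 bins in KO1134, 449 in KO1308 and 0 in WT1101. Adipocyte genes summed to 845, 1271 and 93.8 CPM and plasma cell genes to 3722, 6441 and 1552 CPM in the same order, while the 6 thymocyte and cortical genes summed to 645, 1425 and 2081 CPM, and the part of these cells in the values below was not tested. All intervals are 95% and cover counting error only, and because 1 WT section was available no test between genotypes was possible.

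The antigens lie on 6 chromosomes of the GRCm38 build, all as protein-coding genes of the GENCODE M21 annotation, and no UMI could be assigned to a particular exon or UTR. On chromosome 7 lie Saa3 (46711998 to 46715700), its close paralogue Saa1 (46740497 to 46742980), Cyp2f2 (27119909 to 27133660), Calcb (114718643 to 114723365) and Gp2 (119442537 to 119459285). Reg3g lies on chromosome 6 (78466269 to 78468872), Bpifa1 on chromosome 2 (154142880 to 154149219), Scgb3a1 on chromosome 11 (49663610 to 49665118) and Clca3a2 on chromosome 3 (144796559 to 144819494). Spink5 is the only one of the 10 on chromosome 18. Reads of Saa1, Saa3, Reg3g, Calcb and Clca3a2 could be split with near-identical relatives (Saa2, Reg3b, Calca, Clca3a1), so their counts are uncertain to that extent.

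Gp2, a surface glycoprotein of microfold cells that binds bacteria for uptake, was counted at 9.99 CPM in KO1134 (8.91 to 11.2), 34.9 in KO1308 (32.2 to 37.8) and 2.02 in WT1101 (1.61 to 2.51). Both KO sections lay above WT, by 4.95-fold (3.87 to 6.39) and 17.3-fold (13.7 to 22.0), and the 2 KO sections also differed from each other by 3.49-fold (3.04 to 4.02). Reg3g, a secreted lectin that kills Gram-positive bacteria at the gut surface, stood at 27.2 CPM in KO1134 (25.4 to 29.1), 136 in KO1308 (130.2 to 141.2) and 9.98 in WT1101 (9.03 to 11.002). The order of the sections was the same as for Gp2, with ratios to WT of 2.73 (2.42 to 3.08) and 13.6 (12.2 to 15.1).

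Among the airway secretory antigens, Bpifa1, a secreted protein that coats the upper airway, was counted at 14.6 CPM (13.3 to 16.0) in KO1134, 132 (126 to 137) in KO1308 and 2.19 (1.76 to 2.70) in WT1101. It was 6.65-fold (5.29 to 8.45) and 59.99-fold (48.5 to 75.0) above WT, the latter the highest ratio of the 10 by value, and the KO sections stood 9.02-fold (8.15 to 9.996) apart. Scgb3a1, a secretoglobin of airway secretory cells, was rare, with 30 UMIs in KO1134, 187 in KO1308 and 8 in WT1101, or 0.96, 10.6 and 0.20 CPM. Its ratios to WT of 4.89 (2.19 to 12.3) and 53.9 (26.8 to 127) rest on the 8 WT molecules, and the interval for KO1308 overlaps that of Bpifa1. Cyp2f2, a cytochrome P450 typical of club cells, reached 6.72 CPM (5.84 to 7.69), 23.4 (21.2 to 25.8) and 3.18 (2.65 to 3.78) in KO1134, KO1308 and WT1101. KO1134 was 2.11-fold (1.69 to 2.65) and KO1308 7.37-fold (6.03 to 9.05) above WT.

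Spink5, an inhibitor of the proteases that shed the outer layer of keratinised skin, was counted at 1.86 CPM (1.41 to 2.41) in KO1134, 14.96 (13.2 to 16.9) in KO1308 and 0.79 (0.54 to 1.11) in WT1101. Its interval in KO1134 did not overlap that of WT, at 2.36-fold (1.51 to 3.76), and KO1308 was 19.0-fold (13.1 to 28.3) above WT and 8.02-fold (6.02 to 10.9) above KO1134. Calcb, which encodes the neuropeptide beta-CGRP, stood at 10.5 CPM (9.43 to 11.7), 13.1 (11.5 to 14.9) and 4.66 (4.02 to 5.37). Here the KO sections lay close together, at 2.26-fold (1.89 to 2.72) and 2.82-fold (2.32 to 3.44) above WT. Clca3a2, of the family of chloride channel regulators, had ratios of similar size, with 10.4 CPM (9.31 to 11.6), 16.5 (14.7 to 18.6) and 4.58 (3.95 to 5.29). These gave 2.27 (1.89 to 2.74) and 3.61 (2.99 to 4.36) times WT.

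The acute-phase proteins Saa1 and Saa3 were the members less than 2-fold above WT in KO1134, and Saa3 was so in KO1308 too. Saa1, an apolipoprotein best known from the inflamed liver, was counted at 4.21 CPM (3.52 to 4.99) in KO1134, 8.19 (6.91 to 9.64) in KO1308 and 3.08 (2.56 to 3.67) in WT1101, 1.37-fold (1.06 to 1.76) and 2.66-fold (2.08 to 3.41) above WT. Saa3, its relative made largely outside the liver, was at 7.78 CPM (6.83 to 8.82), 8.76 (7.43 to 10.3) and 7.54 (6.72 to 8.44). The 3 intervals of Saa3 overlapped, and its ratios to WT of 1.03 (0.87 to 1.23) and 1.16 (0.95 to 1.41) spanned no change. In windows that reached 50% of the mean share of the thymocyte and cortical genes, which leave out more of the WT medulla (64.4% of its bins kept) than of KO1134 (76.8%) or KO1308 (74.2%), the ratios of Saa3 were 2.20 and 2.95 and those of Saa1 2.74 and 5.75.

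**Figure D1:**
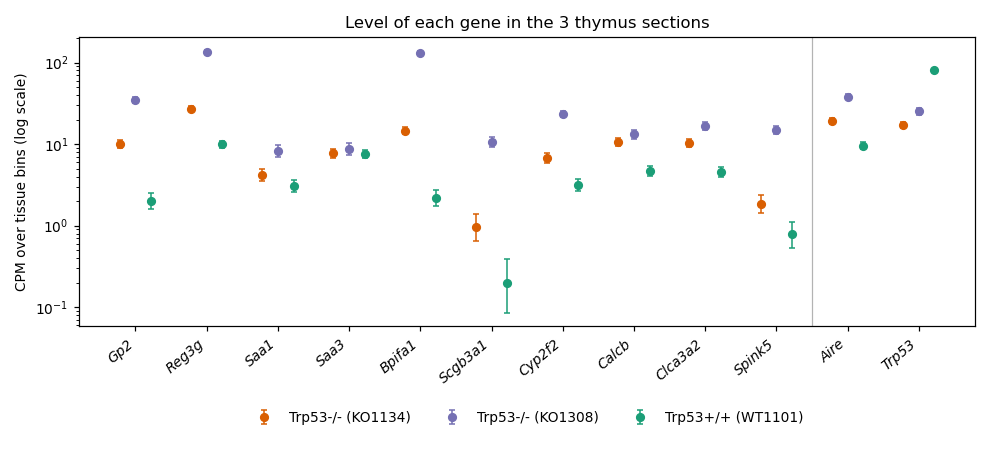
CPM over tissue bins (log axis) of the 10 antigens, Aire and Trp53 in the Trp53-/- sections KO1134 and KO1308 and the Trp53+/+ section WT1101, with 95% Poisson intervals that cover counting error only. Most antigens are lowest in WT1101 and highest in KO1308, Saa3 lies between 7.54 and 8.76 CPM in all 3 sections, and Trp53 is highest in WT1101.

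In all, 8 of the 10 were at least 2-fold above WT in both KO sections, against 10.7% of the 17400 genes with at least 100 UMIs in the 3 sections together, and 0 of 10 were at 0.5 times WT or less in both, against 2.1%. The median ratio over the 10 was 2.32 in KO1134 and 10.5 in KO1308, beside 1.01 and 1.13 over all genes tested. In KO1308 every member was counted above KO1134, although for Saa3 the ratio of 1.13 (0.91 to 1.38) spanned 1. Each KO section was set against the same WT section, so the ratios of the 2 KO sections share their denominator. Aire stood at 19.1 CPM in KO1134, 38.2 in KO1308 and 9.56 in WT1101, 1.996-fold (1.75 to 2.27) and 3.99-fold (3.52 to 4.53) above WT. In bulk sums of this kind, more cells of a type and more RNA per cell cannot be told apart.

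The antigens were sparse in space. Reg3g was found in 510 of 12009 tissue bins in KO1134 (4.25%), 1333 of 16141 in KO1308 (8.26%) and 247 of 27106 in WT1101 (0.91%), and 72.0%, 70.8% and 75.7% of those bins held a single molecule. Bpifa1 occupied 244, 986 and 59 bins, with up to 29, 82 and 5 molecules in a bin, and Gp2 162, 410 and 55 bins. Scgb3a1 was seen in 29, 103 and 8 bins, with 13 molecules in its fullest bin of KO1308 and 1 in each WT bin. The remaining members occupied 53 to 262 bins of KO1134, 127 to 336 of KO1308 and 30 to 194 of WT1101. Because KO1308 was the shallowest section per bin, shares were also taken after thinning each bin to 500 UMIs, which left out 166, 3119 and 2814 bins. The thinned shares kept the order of the sections for Reg3g at 1.31%, 5.20% and 0.50%, for Bpifa1 at 0.68%, 3.93% and 0.11%, and for Gp2 at 0.44%, 1.4996% and 0.095%. Saa3 gave 0.39%, 0.42% and 0.40% after thinning, where the unthinned shares had been 1.43%, 0.82% and 0.72%.

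Within the thymus most antigens were concentrated in the medulla, and for 8 of the 10 the ratio of medullary to remaining thymus was highest by value in WT1101. There Reg3g stood at 56.2 CPM in medullary bins against 1.15 in the rest of the thymus, a ratio of 49.0, and Gp2 at 11.6 against 0.21, a ratio of 56.1. In KO1134 the same ratio was 13.6 for Reg3g and 9.16 for Gp2, and in KO1308 it was 3.23 and 1.74. Cyp2f2 was an exception, at 16.5 (10.3 to 27.9) in KO1134, 2.47 (2.01 to 3.03) in KO1308 and 6.62 (4.61 to 9.54) in WT1101, and Scgb3a1 the other, at 2.38, 0.84 and 0.75. The medulla held 90.1% of Reg3g molecules in WT1101, 74.9% in KO1134 and 50.4% in KO1308. Bpifa1 in the rest of the thymus was counted at 0.35 CPM in WT1101, 3.19 in KO1134 and 104 in KO1308, so in KO1308 it was counted in quantity outside the medulla too. A circle of 500 µm radius described below held 54.7% of Bpifa1 and 50.8% of Gp2 molecules of KO1308. Of the bins in that circle, 76.9% belonged to the rest of the thymus. The ratios of medullary to remaining thymus were not taken without it, so they need not hold for the whole section. Of the 9 members with at least 20 positive bins in every section, 8 were at least 2-fold higher in the medulla than in the rest of the thymus in all 3 sections, against 5.63% of 17024 genes, Gp2 in KO1308 being the exception. Scgb3a1 was left out by that filter, and its molecules lay mostly outside the medulla in WT1101 (7 of 8) and KO1308 (76.5% in the rest of the thymus). The medullary share of a bin is read from 8 epithelial genes against the section mean, and these genes summed to 265 CPM in KO1134, 558 in KO1308 and 193 in WT1101.

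Counted over medullary bins alone, the KO sections differed less from WT. Bpifa1 was then at 48.9 CPM in KO1134, 290.0 in KO1308 and 11.6 in WT1101, 4.24-fold (3.29 to 5.51) and 25.1-fold (19.9 to 32.2) above WT. Gp2 was at 24.9, 57.6 and 11.6 CPM, or 2.15-fold (1.64 to 2.86) and 4.99-fold (3.82 to 6.57). Reg3g was above WT by 1.59-fold (1.39 to 1.81) and 5.60-fold (4.98 to 6.31), and Spink5 had ratios of 1.04 (0.61 to 1.80) and 7.90 (5.22 to 12.3). Calcb at 33.0, 27.2 and 23.4 CPM and Clca3a2 at 34.6, 33.8 and 25.0 CPM were at most 1.41 times WT in either KO section. Saa3 went the other way, with 25.9 CPM in KO1134, 20.4 in KO1308 and 40.05 in WT1101 and ratios of 0.65 (0.53 to 0.78) and 0.51 (0.39 to 0.66). Saa1 lay at 13.4, 20.2 and 17.3 CPM, with ratios of 0.77 (0.58 to 1.03) and 1.17 (0.86 to 1.58) that both spanned 1. By this count 3 of 10 were at least 2-fold above WT in both KO sections (Gp2, Bpifa1 and Scgb3a1, the last over 1 WT molecule) against 3.07% of 13469 genes, and 0 of 10 at 0.5 times WT or less, against 2.1%.

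**Figure D2:**
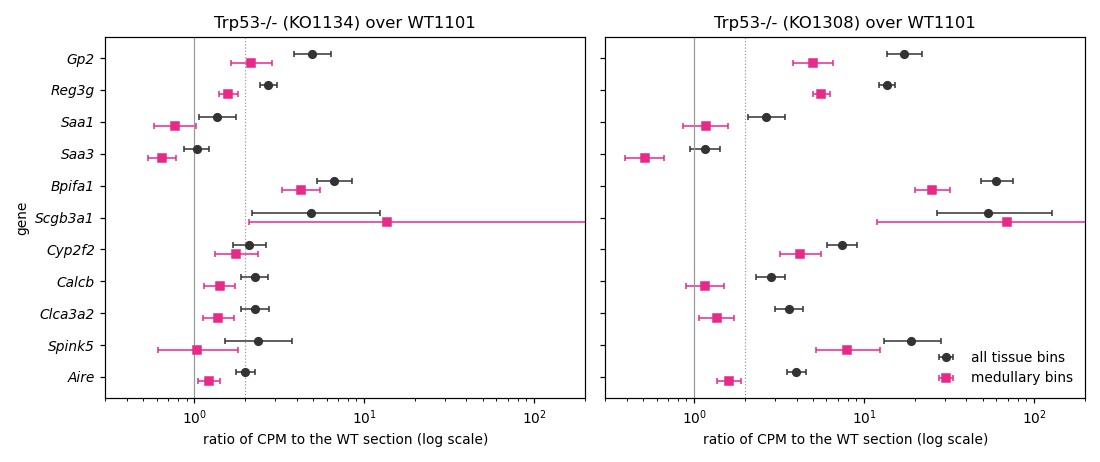
Ratio of CPM in KO1134 (left) and KO1308 (right) to WT1101 on a log axis, for each antigen and Aire, over all tissue bins (circles) and over medullary bins only (squares), with 95% conditional binomial intervals that cover counting error only. The squares lie left of the circles for every antigen except Scgb3a1, whose medullary interval runs beyond the axis, and Saa3 falls below 1 in both panels.

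Positive bins lay in clumps. The clumping index is the CPM of a gene in the 8 bins that touch its positive bins, divided by its CPM in the section, so a gene spread evenly over the RNA scores about 1. It was 24.5 in KO1134, 12.2 in KO1308 and 72.2 in WT1101 for Gp2, 15.2, 8.86 and 66.1 for Bpifa1, and 14.3, 6.45 and 47.1 for Saa1. Reg3g scored 6.32, 4.98 and 32.6, and Saa3 10.7, 6.80 and 39.7. Among the 9 members with at least 20 positive bins in every section the index was lowest for Clca3a2, with 5.45, 2.68 and 6.23, which sits near the values of Aire itself at 4.21, 2.53 and 7.96. All 9 members tested scored at least 2 in all 3 sections, against 2.23% of 17024 genes, whose median index was 1.09, 1.09 and 1.02. Among medullary bins alone, 7 of the 9 scored at least 2 in every section, Clca3a2 (1.73, 1.38 and 1.44) and Spink5 in KO1308 (1.63) falling below. The share over all genes was not counted within medullary bins, so this count has no background beside it. RNA that spreads to neighbouring spots and cells that sit side by side cannot be told apart at this resolution.

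The index fell off with distance at a different pace in the sections. In WT1101 the index of Gp2 fell from 72.2 in touching bins to 7.17 in the ring 54 µm away, and that of Bpifa1 from 66.1 to 23.6. In KO1308 the same step was from 12.2 to 10.1 for Gp2 and from 8.86 to 8.01 for Bpifa1. At 135 µm the index was 5.02 in KO1308 and 5.29 in WT1101 for Gp2, 5.57 and 5.18 for Bpifa1, and 2.74 and 9.28 for Reg3g. The largest connected patch of positive bins in WT1101 held 4 bins for Gp2, 5 for Bpifa1 and 11 for Reg3g. In KO1134 these were 13, 15 and 20 bins, and in KO1308 83, 248 and 168. Saa1, Saa3, Calcb and Clca3a2 formed no patch above 6 bins in KO1308. Patch size also grows with the share of positive bins, and it is given without correction for that.

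**Figure D3:**
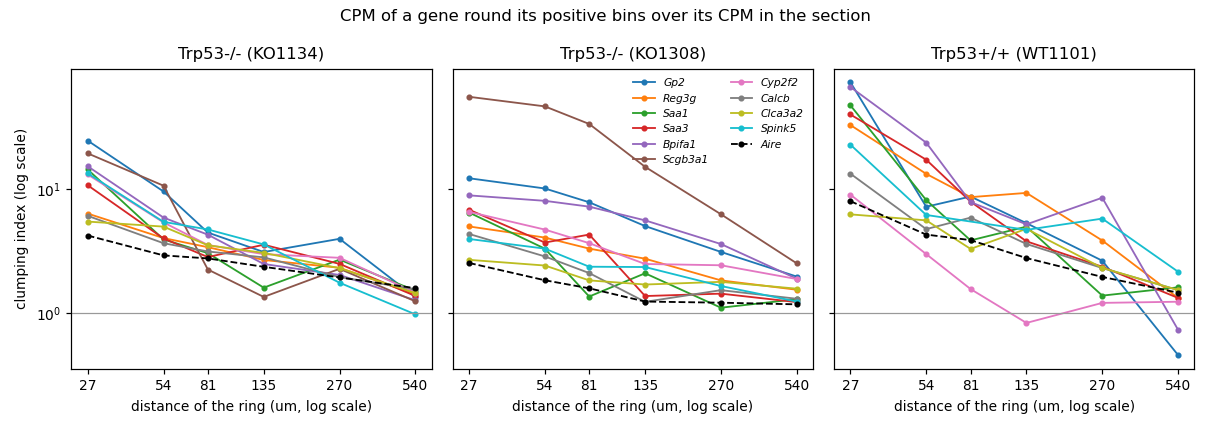
Clumping index (log axis) against the distance of the ring of bins from a positive bin (µm, log axis) for each antigen and Aire (dashed) in the 3 sections; Scgb3a1, with 8 molecules in WT1101, is not drawn there, and points at 0 are left out. Most curves start highest in WT1101 and drop within 81 µm, whereas Scgb3a1, Gp2 and Bpifa1 decline slowly in KO1308.

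KO1308 consisted of 3 separate pieces of tissue, and the antigens were not spread evenly over them. The largest piece, of 8391 bins, carried Bpifa1 at 199 CPM and Gp2 at 49.6, the second piece, of 7214 bins, 60.08 and 20.1. Reg3g was closer between them at 160.0 and 119 CPM, and Aire lay at 35.7 and 45.3, so that Aire was not highest where Bpifa1 and Gp2 were. The largest piece holds the Scgb3a1 patch described below. The circle drawn round that patch held 1265 Bpifa1 and 312 Gp2 molecules, beside 1861 and 465 in the whole piece. Outside the circle KO1308 stood at 64.4 CPM for Bpifa1 and 18.6 for Gp2, so the piece difference and the circle are not separate observations. In the third piece, of 536 bins, 0 Gp2 and 0 Reg3g molecules were counted, where 3 molecules would be 3.78 CPM and the upper 95% limit is 4.65, and Bpifa1 stood at 8.82 CPM (3.55 to 18.2).

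In KO1308 most Scgb3a1 molecules were gathered at a single place. In KO1134 the largest Scgb3a1 patch held 4 bins, and in WT1101 no 2 of its 8 bins touched. Its largest patch in KO1308 held 34 touching bins, and a circle of 500 µm radius round the centre of that patch, drawn after the values had been seen, took in 996 bins, 6.17% of the tissue, with 7.44% of its UMIs. Inside it lay 153 of 187 Scgb3a1 molecules, 81.8%, at 117 CPM against 2.09 outside, a ratio of 56.0 (38.4 to 83.8). The circle also held 54.7% of Bpifa1 molecules, at 967 CPM inside and 64.4 outside, and 50.8% of Gp2 molecules, at 239 and 18.6. Cyp2f2 was 6.69-fold (5.42 to 8.22), Reg3g 4.94-fold (4.52 to 5.41) and Spink5 3.60-fold (2.65 to 4.83) higher inside. Saa1 at 1.13 (0.57 to 2.04), Saa3 at 0.77 (0.35 to 1.51), Calcb at 1.24 (0.75 to 1.95) and Aire at 1.00 (0.74 to 1.34) gave ratios that spanned 1. Only 22.8% of the bins inside were medullary by the 8-gene rule, close to the 26.2% of the whole section.

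Genes of the airway secretory list were also higher in the circle. The 8 genes summed to 673 CPM inside and 84.8 outside, 7.93-fold (7.28 to 8.64), led by Muc5b, a gel-forming airway mucin, with 42 molecules inside and a ratio of 34.9 (18.9 to 67.7), Sftpd at 10.2 and Wfdc2, a secreted antiprotease, at 9.84 (8.91 to 10.9). Genes with at least 50 molecules inside that stood out most were Scgb3a2 at 23.9-fold, Serpinb11 at 17.5-fold and Pigr, the transporter of polymeric immunoglobulin, at 10.03-fold. The ionocyte list was 3.85-fold (2.38 to 6.04), the ciliated list 2.14-fold (1.76 to 2.57) and the general epithelial list 1.51-fold (1.43 to 1.59) higher. The lung alveolar list lay at 27.5 CPM inside and 19.6 outside, 1.40-fold (0.97 to 1.99), and its defining gene Sftpc was counted 3 times in all of KO1308. Without the circle, KO1308 still exceeded WT by 29.4-fold (23.6 to 36.9) for Bpifa1, 10.6-fold (4.81 to 26.5) for Scgb3a1, 9.18-fold (7.17 to 11.9) for Gp2 and 10.5-fold (9.42 to 11.7) for Reg3g.

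**Figure D4:**
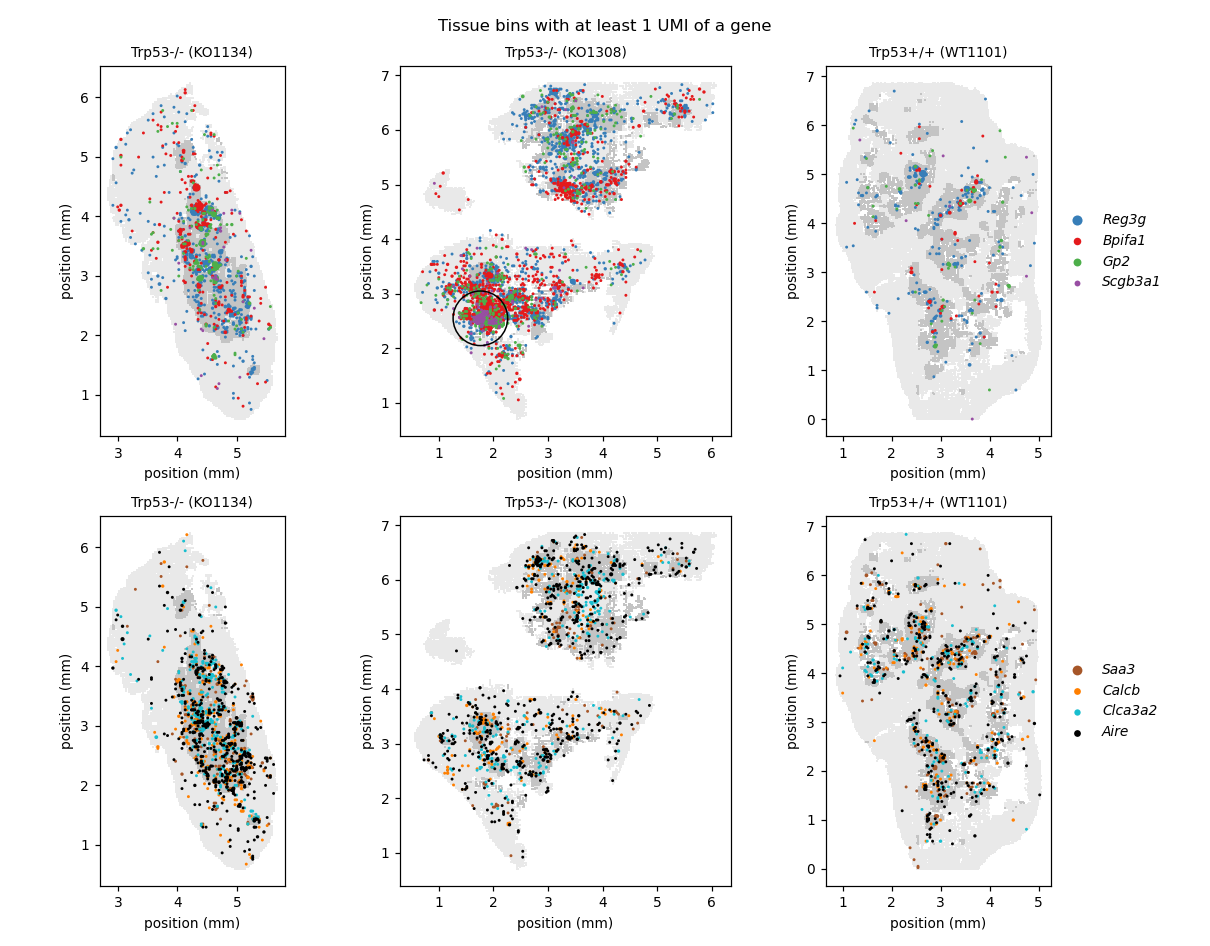
Tissue bins of the 3 sections in mm, light grey for bins outside the medulla and dark grey for medullary bins, with bins holding at least 1 molecule of Reg3g, Bpifa1, Gp2 or Scgb3a1 (upper row) and of Saa3, Calcb, Clca3a2 or Aire (lower row), and larger points for more molecules. The circle of 500 µm radius in KO1308 holds 81.8% of that section's Scgb3a1 molecules and 54.7% of its Bpifa1 molecules, and later genes are drawn over earlier ones.

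Spink5, 19.0-fold above WT in KO1308, and Calcb had no promoter entry, so their bases are not shown. To set other members far above WT in KO1308 (Bpifa1, Scgb3a1, Gp2 and Reg3g) beside Saa3, which was not, the 250 bases before the annotated start of each are given 5′ to 3′ on the strand of the gene, from RefSeq on GRCm38.p6, with matches to any of the motifs searched in capitals.
Bpifa1 (chr2:154142630-154142879, plus strand): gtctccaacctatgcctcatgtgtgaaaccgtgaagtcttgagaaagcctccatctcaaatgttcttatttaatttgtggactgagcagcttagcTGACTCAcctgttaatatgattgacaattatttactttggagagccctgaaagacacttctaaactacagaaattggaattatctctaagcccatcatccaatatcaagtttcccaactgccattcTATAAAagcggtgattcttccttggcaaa
Scgb3a1 (chr11:49663345-49663594, plus strand): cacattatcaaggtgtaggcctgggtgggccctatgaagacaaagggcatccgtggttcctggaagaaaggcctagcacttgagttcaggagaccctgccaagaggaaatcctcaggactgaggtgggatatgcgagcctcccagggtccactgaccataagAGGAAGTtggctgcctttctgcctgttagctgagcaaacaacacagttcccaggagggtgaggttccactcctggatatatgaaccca
Reg3g (chr6:78468875-78469124, minus strand): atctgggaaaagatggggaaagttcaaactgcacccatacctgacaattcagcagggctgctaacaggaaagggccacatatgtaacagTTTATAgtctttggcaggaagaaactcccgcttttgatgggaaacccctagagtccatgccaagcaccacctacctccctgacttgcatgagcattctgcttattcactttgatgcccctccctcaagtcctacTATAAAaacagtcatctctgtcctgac
Gp2 (chr7:119459273-119459522, minus strand): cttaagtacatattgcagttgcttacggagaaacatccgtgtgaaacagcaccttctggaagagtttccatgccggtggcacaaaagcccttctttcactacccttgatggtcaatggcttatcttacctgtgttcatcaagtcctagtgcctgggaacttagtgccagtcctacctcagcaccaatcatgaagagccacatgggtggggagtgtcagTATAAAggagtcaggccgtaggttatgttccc
Saa3 (chr7:46715677-46715926, minus strand): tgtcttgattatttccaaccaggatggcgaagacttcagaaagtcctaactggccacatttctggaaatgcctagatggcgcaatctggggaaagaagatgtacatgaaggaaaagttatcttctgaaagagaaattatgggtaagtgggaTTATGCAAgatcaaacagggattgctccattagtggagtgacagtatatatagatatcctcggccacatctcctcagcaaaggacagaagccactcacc

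The motifs searched on both strands were TATAAA (the TATA box), TGTTTAC (forkhead factors), TGANTCA (AP-1), AGGAAGT (ETS factors) and TTGCNNAA (C/EBP factors), with no overlap between matches. Of the genes shown, Bpifa1, Reg3g and Gp2 carried TATAAA within the last 32 bases before the start, starting 29, 27 and 32 bases upstream, and Reg3g held another on the opposite strand. Scgb3a1 had no TATAAA, nor had Cyp2f2, which held none of the motifs searched and was also above WT in both KO sections. Over all 32851 promoters in the table, 12.4% held TATAAA somewhere in these 250 bases, 3.17% TGTTTAC, 6.75% TGANTCA, 7.69% AGGAAGT and 9.56% TTGCNNAA. In Bpifa1 the other match is TGANTCA, and in Saa3 the single match is TTGCNNAA on the opposite strand. Of the 8 members with an entry, 3 held TATAAA, 3 TTGCNNAA (Saa1, Saa3 and Clca3a2), 2 TGANTCA, 1 AGGAAGT (Scgb3a1) and 0 TGTTTAC. These matches are descriptions of letters and not of bound sites.

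Which antigens shared a bin was read against the number expected if each gene's positive bins were placed independently, with a chance that rises with the depth of the bin. This number was added after the data had been seen, in place of one built from the molecules of each gene, which counts several molecules in a bin as several bins and is too high for clumped genes. Of the 45 pairs, 14 exceeded it beyond counting error in all 3 sections, and 0 fell below it beyond counting error in any section. The expected number takes no account of zone, so 2 genes that are both richer in the medulla can exceed it over the tissue. The share of other gene pairs that exceed it was not counted, so the 14 have no background beside them. Saa1 and Saa3 shared 16 bins in KO1134, 8 in KO1308 and 24 in WT1101, or 9.41 (5.38 to 15.3), 5.56 (2.40 to 10.96) and 25.1 (16.1 to 37.4) times the number expected. Cyp2f2 and Spink5, of airway and keratinised epithelium, shared 12, 21 and 3 bins, or 13.7, 3.15 and 16.8 times. Reg3g took part in 7 of the 14 pairs, among them those with Gp2 at 5.59, 3.10 and 13.4 times and with Spink5 at 6.31, 2.72 and 24.6 times. Reg3g and Bpifa1, the members with the most molecules in KO1308, met in 50, 266 and 17 bins, or 4.04 (2.996 to 5.32), 2.42 (2.14 to 2.73) and 23.7 (13.8 to 37.9) times. Saa3 and Calcb stood at 5.22, 6.28 and 5.01 times, and KO1308 had the lowest median over the 45 pairs, with 2.18 beside 4.07 in KO1134 and 6.75 in WT1101.

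Counted among medullary bins alone the sharing was smaller, with medians over the 45 pairs of 1.88 in KO1134, 1.52 in KO1308 and 2.39 in WT1101. There 5 pairs exceeded the expected number beyond counting error in all 3 sections, again without a share over other gene pairs. The 5 were Gp2 with Reg3g, Reg3g with Bpifa1, Reg3g with Spink5, Saa1 with Saa3, and Cyp2f2 with Spink5. Reg3g and Bpifa1 stood at 2.04 (1.48 to 2.75), 1.60 (1.34 to 1.89) and 8.49 (4.95 to 13.6), and Saa1 and Saa3 at 3.20 (1.65 to 5.58), 4.21 (1.54 to 9.16) and 8.91 (5.71 to 13.3). Cyp2f2 and Spink5 gave 6.59 (3.01 to 12.5), 2.25 (1.201 to 3.86) and 8.596 (1.77 to 25.1), the last from 3 shared bins.

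Bins positive for some antigens were richer in genes of their own epithelial type, and often of others. These ratios set positive bins against all other tissue bins, so any gene richer in the medulla can be raised. No value within the medulla and no share over all genes is given beside them. The leading genes named are the top of 617 to 9736 candidates per member, so whether they share a cell with the antigen was not tested. In Gp2-positive bins the microfold list was 2.21, 1.71 and 3.53 times its level in other tissue bins of KO1134, KO1308 and WT1101, and the airway secretory list 4.14, 9.27 and 20.8 times. Anxa5 gave most tissue molecules of the microfold list, 5811 of 8074 in KO1134, 3647 of 5204 in KO1308 and 9481 of 10655 in WT1101. The genes most raised beside Gp2 in all 3 sections were Wfdc2 (19.7, 11.2 and 72.8 times), Msln, the surface protein mesothelin (43.1, 6.61 and 30.6), and Krt19, a keratin of simple epithelia (23.5, 5.17 and 23.0). Beside Cyp2f2 the leading genes were likewise Wfdc2 (18.8, 9.89 and 14.0) and Msln (23.7, 9.64 and 10.8), followed by the unnamed Gm37245. Beside Spink5 were Wfdc2 (21.5, 6.59 and 65.5), Wfdc18 (10.9, 4.70 and 16.6) and Anxa1 (6.72, 4.28 and 9.51), and the keratinised list stood at 3.96, 1.91 and 5.60 times.

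Beside Bpifa1 the 3 leading genes were Krt19 (13.8, 4.99 and 15.9 times), Rptn, a protein of the cornified layer (20.0, 4.98 and 171), and Wfdc2 (4.32, 8.33 and 15.4). Reg3g was accompanied by its paralogue Reg3b (7.02, 7.27 and 130), by Pigr (6.58, 9.49 and 39.3) and by Wfdc2 (6.52, 6.53 and 7.55). The enterohepatic list, which holds Reg3b, was 3.27, 4.71 and 22.2 times higher beside Reg3g. Beside Saa1 were Spink1, a pancreatic trypsin inhibitor (11.7, 5.20 and 81.7), Cyp2a5 (13.3, 4.70 and 27.7) and Wfdc18, and beside Saa3 were Alox15 (6.64, 7.69 and 8.601), Cdx1, an intestinal homeobox factor (6.62, 6.11 and 16.2), and Marc1. The ratios in WT1101 rest on 5 to 71 molecules of the partner gene.

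Calcb-positive bins were richer in endocrine genes, by the same kind of ratio. Its leading neighbours were Crhbp, which binds the stress hormone CRH (8.64, 14.5 and 42.3 times), Utf1 (10.4, 6.53 and 21.6) and the hormone somatostatin, Sst (6.01, 15.5 and 30.0), and the neuroendocrine list was 7.02, 3.30 and 5.22 times higher in Calcb-positive bins. That list holds Calca, whose reads could be split with Calcb. Clca3a2 had Alox15 (4.32, 3.62 and 10.5), 4933427I22Rik and Il1r2 beside it, so Alox15 led beside both Clca3a2 and Saa3. Beside Scgb3a1, with its 8 WT molecules, Cbr2 was 2.31, 3.16 and 3.69 times higher, the WT value resting on 5 molecules.

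Near Aire-positive bins the antigens divided. Aire was found in 453 bins of KO1134, 572 of KO1308 and 345 of WT1101. The median tissue bin lay 97.3, 81 and 171 µm from the nearest Aire-positive bin in KO1134, KO1308 and WT1101, and the median medullary bin 38.2, 60.4 and 76.4 µm. Calcb-positive bins lay at a median of 27, 38.2 and 54 µm, and 21.4%, 16.8% and 10.8% of them held Aire themselves. Scgb3a1-positive bins lay 60.4, 85.4 and 166 µm away, beyond the tissue median in KO1308. For the other 9 members the median distance was shorter than that of all tissue bins in every section.

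Distances shorten as Aire-positive bins become more common, so CPM within 60 µm of an Aire-positive bin was also divided by CPM farther away. For Calcb this ratio was 9.11 (6.97 to 12.05) in KO1134, 3.82 (2.89 to 5.06) in KO1308 and 13.5 (10.02 to 18.2) in WT1101, and for Saa3 11.1, 2.11 and 12.9. Reg3g gave 5.97 (5.14 to 6.95), 1.38 (1.27 to 1.497) and 17.9 (14.6 to 22.1), and Gp2 6.47 (5.02 to 8.39), 0.87 (0.73 to 1.03) and 5.07 (3.08 to 8.18). Gp2 in KO1308 was thus no higher within 60 µm of Aire than over all bins farther away. Those farther bins were not alike, at 39.5 CPM from 60 to 100 µm and 45.2 from 100 to 200 µm. Beyond 200 µm Gp2 fell to 4.06 CPM (1.63 to 8.37), from 7 molecules. The circle described above held 50.8% of the Gp2 molecules of KO1308, and its part in this ratio is not given here. The value at least 2 in all 3 sections was reached by 4 of 9 members tested (Saa3, Bpifa1, Calcb and Clca3a2), against 1.02% of 17023 genes, and KO1308 decided this, since all 9 passed in the other sections. Without the circle drawn in KO1308, Saa1 took the place of Bpifa1 among these 4. The median over the 9 members was 5.97, 1.95 and 9.12, beside 1.04, 1.03 and 1.03 over all genes.

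Among medullary bins alone the ratio was at least 2 in all 3 sections for Calcb alone, with 4.06 (2.68 to 6.42), 2.29 (1.48 to 3.63) and 3.13 (2.23 to 4.42). Here too the share over all genes was not counted within medullary bins. Saa3 gave 5.87 (3.41 to 10.97), 1.41 (0.88 to 2.29) and 3.21 (2.48 to 4.17). Reg3g went from 4.29 (3.42 to 5.42) in WT1101 and 1.80 (1.49 to 2.20) in KO1134 to 0.81 (0.72 to 0.91) in KO1308. Gp2 gave 1.23, 0.79 and 1.05, with intervals that spanned 1, and Bpifa1 gave 0.90 (0.72 to 1.13), 1.03 (0.92 to 1.16) and 1.73 (1.07 to 2.80), above 1 beyond counting error in WT1101. Bins holding both Calcb and Aire were 4.74 (3.57 to 6.18), 3.43 (2.36 to 4.82) and 6.35 (3.76 to 10.03) times the number expected over the tissue from positive bins. For Bpifa1 and Aire the value was 2.63 (1.76 to 3.78) in KO1134, 0.99 (0.72 to 1.31) in KO1308 and 3.99 (1.09 to 10.2) in WT1101, so in KO1308 their shared bins did not differ from that number beyond counting error.

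**Figure D5:**
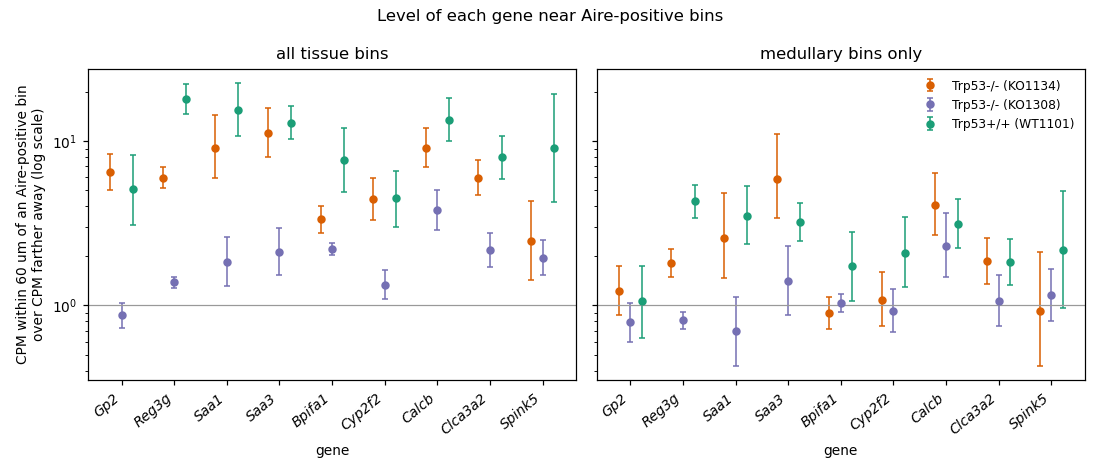
CPM within 60 µm of an Aire-positive bin over CPM farther away (log axis) for the 9 antigens with at least 20 positive bins in every section, over all tissue bins (left) and medullary bins only (right), with 95% intervals that cover counting error only. KO1308 lies lowest for every antigen on the left, and on the right Calcb stays above 2 in all 3 sections.

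Genes of the other mimetic programmes were read from lists of known markers, for the genes with at least 20 UMIs in the 3 sections together, beside which the share of 10.7% given above was taken over genes with at least 100. At least 2-fold above WT in both KO sections were 5 of 8 airway secretory genes (Scgb1a1, Wfdc2, Sftpd, Bpifb1 and Lypd2), 6 of 7 neuroendocrine genes, among them Insm1 at 2.52 and 3.54 and Resp18 at 4.54 and 6.42, and 4 of 8 microfold genes, among them Spib, a factor required by microfold cells, at 4.48 and 4.10. Spib is also a B cell gene, and B cell genes summed to 223, 129 and 40.9 CPM. The same call was made for 3 of 7 tuft genes, 3 of 7 ciliated genes, 2 of 4 ionocyte genes, 4 of 7 muscle genes, 2 of 10 keratinised genes and 0 of 8 enterohepatic genes. None of these lists had a gene at 0.5 times WT or less in both. Mylpf, the muscle gene with the most UMIs, came close at 0.39 and 0.5001 times WT. The ciliated gene Ccdc153 stood at 0.031 and 0.66. The muscle list summed to 45.9, 35.0 and 41.8 CPM in KO1134, KO1308 and WT1101. Several of the genes called rest on few WT molecules, because the minimum of 20 UMIs was summed over the 3 sections. WT1101 held 5 molecules of Bpifb1, 7 of Sftpd, 8 of Chga, 6 of Chgb and 5 of Scg2. It held 2 of Tmem212, 2 of Myog, and 3 and 2 of the ionocyte genes called, Foxi1 and Atp6v1g3. Wfdc2 was counted at 10.3, 92.5 and 4.49 CPM in KO1134, KO1308 and WT1101, the same order as Bpifa1 and Gp2. None of the enterohepatic genes read was called, nor were Saa1 and Saa3, but the genes of that list did not move alike. Fabp1 stood at 1.73 and 1.93 times WT in KO1134 and KO1308, and Apoa1 at 1.43 and 0.97. Hnf4a stood at 4.91 and 0.24 times WT, Reg3b at 0.98 and 6.84, and Saa2 at 2.01 and 1.06. The sum of the list stood at 11.9, 10.5 and 5.40 CPM in KO1134, KO1308 and WT1101, above WT in both KO sections.

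General epithelial genes stood at 598, 822 and 473 CPM and medullary epithelial genes at 265, 558 and 193 CPM in KO1134, KO1308 and WT1101, in the order of most antigens, and their part in the ratios was not tested otherwise than as follows. Per UMI of the medullary list, the median ratio of the 10 antigens to WT was 1.69 in KO1134 and 3.62 in KO1308, with Gp2, Bpifa1 and Scgb3a1 at least 2-fold above WT in both and Saa1 and Saa3 below WT in both. Per UMI of the general epithelial list, Bpifa1 was 5.26 and 34.5 times WT, Gp2 3.91 and 9.94, Reg3g 2.16 and 7.81, and Saa3 0.82 and 0.67.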

How the data were processed

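Thymus sections of 2 Trp53-/- mice and 1 Trp53+/+ mouse were profiled on BMKMANU S1000 slides. The authors ran BSTMatrix and STAR on the reads and deposited matrices of unnormalised UMI counts with the position of each spot, 1 section each. Per the submitters' processing notes the build is GRCm38, and how reads matching several genes were counted is not given in the sources used here. Spots 4.8 µm apart were summed into 27 µm bins. Bins with at least 300 genes and at most 30% mitochondrial UMIs, in connected groups of at least 200, were kept. Bins of 1 section are not replicates, so values are CPM with exact Poisson intervals, ratios with exact conditional binomial intervals, and called past a fold of 2 without any p-value. Sections held 31237062, 21089885 and 41581477 UMIs (KO1134, KO1308, WT1101). The members and the 22 gene lists were chosen with earlier results of these data known. The named genes are the members, Aire, Trp53, list genes with at least 20 UMIs, and for each member the 3 genes with the highest lowest ratio beside it, among genes with at least 5 UMIs there in every section. Other named genes were picked after their values were seen. A gene that the rule names is not reported here. Expected shared bins were planned from each gene's CPM and each bin's depth. That number was too high for genes with several UMIs in a bin, on simulated data as well, so after seeing the data each gene's number of positive bins replaced its CPM. Bin width, gene minimum, denominators, rings, distances and omitted KO sections were varied. Interval coverage and index were tested on simulated data. Python 3.11.15 with numpy 2.4.6, scipy 1.17.1 and pandas 2.3.3 was used.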

Additional observations from a re-analysis of the deposited data

How the results depend on the processing

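The count of 8 antigens at least 2-fold above WT in both KO sections was 8 in bins of 20 or 50 µm, with at least 200 or 500 genes per bin, over all kept bins, and, chosen after seeing the data, without the circle round the Scgb3a1 patch or without lymph-node-like bins, and 9 in the thymus area only (with Saa1 and Saa3, without Cyp2f2), where windows poor in thymocyte and cortical genes are left out and 64.4% of medullary bins of WT1101 stay in, against 76.8% in KO1134 and 74.2% in KO1308. It fell to 4 per general epithelial UMI, to 3 in medullary bins only and to 3 at a fold of 3. Leaving out a KO section gave 8 to 9. No alternative brought an antigen to 0.5 times WT or less in both sections, and leaving out a KO section gave 0 to 0. The clumping count was 7 to 9 throughout, and 9 to 9 on leaving out a KO section. The count of 4 near Aire was 1 within 30 µm, 1 in medullary bins only and 3 to 6 under the other settings, and 4 to 9 on leaving out a KO section, where the 9 is without KO1308. The genes changed too: Bpifa1 dropped out without the circle, and Saa3 in bins of 50 µm or with Aire-positive bins left out. In medullary bins of KO1134 the near-Aire ratios of Bpifa1 and Spink5 turned from 3.34 and 2.47 to 0.90 and 0.92. The 14 pairs sharing more bins than expected from positive bins were 5 in medullary bins only, 17 in bins of 20 µm and 18 in bins of 50 µm. With the number expected from molecules, as planned but too high for clumped genes, they were 6, and 0 in medullary bins only, 6 in bins of 20 µm and 3 in bins of 50 µm. The cause was not tested. No paired analysis was possible because no test was made and replicate numbers do not pair the 2 KO sections with the WT section. Members with few molecules, Scgb3a1 above all, limit what can be read from WT1101.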
